A study of Mus musculus with 6 samples.

Results

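The 10 genes described here encode the Toll-like receptors *Tlr2*, *Tlr3*, *Tlr4* and *Tlr5*, the co-receptor *Cd14*, the cytosolic receptor *Nod1*, the adaptors *Myd88* and *Ticam1*, and the kinases *Irak1* and *Irak4*. They were chosen by name as pattern recognition receptors and their adaptors. Each of the 10 symbols matched 1 gene among the 24224 of the count table, and all 10 were among the 14899 genes kept by the filter on low counts. RNA was sequenced from type II alveolar epithelial (AT2) cells, the surfactant-producing progenitor cells of the alveolus, of naturally aged WT mice (C57/6J in the sample labels, C57BL/6J in the study's methods) at 24 m (months of age) and at 3 m. The cells were sorted from lung as CD45- CD31- CD326+ MHCII+ cells, and no other treatment separated the ages. There were 3 libraries at each age, which the study describes as biological replicates, each made from the lung cells of several mice that had been pooled, so the spread between single mice could not be measured.

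Toll-like receptors sense microbial molecules at the cell surface or in endosomes. After binding they recruit an adaptor through a shared TIR domain. *Myd88* serves all of the receptors except *Tlr3* and passes the signal to *Irak4* and *Irak1*, which leads to activation of the transcription factor NF-kB and to the induction of cytokine and chemokine genes. *Ticam1*, also known as TRIF, serves *Tlr3* and the endosomal signal of *Tlr4* and leads to interferon as well. *Nod1* works apart from the Toll-like receptors, in the cytosol, through the kinase *Ripk2*. The alveolar epithelium meets inhaled microbes directly, and these receptors are part of its first response.

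In the sorted AT2 cells *Tlr2* was higher in every 24 m library than in every 3 m library, and it was the only one of the 10 genes called, by DESeq2 and not by edgeR. *Tlr4* and *Tlr3* had lower 24 m means, which rested on a single 3 m library. *Cd14* had a mean 1.84 times as high at 24 m, with overlapping ages. For *Nod1*, *Myd88*, *Ticam1*, *Irak1* and *Irak4* the ages overlapped, and the mean at 24 m was between 0.875 and 1.22 times the mean at 3 m.

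Library totals were between 28827930 and 32394985 counts at 24 m and between 30108093 and 30840965 counts at 3 m. Values are CPM, the counts of a gene over the library total scaled by edgeR's TMM factor, and 3 counts, the limit that a count of 0 allows, corresponded to between 0.0892 and 0.107 CPM. Limits from counts cover counting error only, while the limma-voom intervals also take in the spread between libraries. Log2 fold changes and SE are those of edgeR unless another source is given, also where they stand beside an adjusted p of DESeq2. The summed level of 12 AT2 markers, which include *Sftpc* and *Lamp3*, was between 184874 and 193721 CPM at 24 m and between 176000 and 276529 CPM at 3 m, with none at 0. 3 m replicate 2 stood apart from the other libraries. It held 13430 genes with a count, the fewest of the 6 libraries, and lay below both other 3 m libraries in 47.2% of the genes tested. It was the highest 3 m library in 36.2%, against 33.0% for 3 m replicate 1 and 30.8% for 3 m replicate 3. Results that rest on 3 m replicate 2 are given with and without it.

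Promoter windows of 8 of the 10 genes, matched by symbol, were used, with none for *Tlr4* or *Cd14*. They are shown for *Tlr2*, the gene with the clearest age difference, for *Tlr3*, the other gene whose window matched the NF-kB consensus, and for *Myd88*, the adaptor whose window matched the interferon response element (ISRE). Each window runs from 250 bases before to 50 bases after the annotated start, 5′ to 3′ on the gene's strand, and comes from RefSeq on GRCm38.p6. The positions are chr3:83841559-83841858 (minus strand) for *Tlr2*, chr8:45410331-45410630 (minus strand) for *Tlr3* and chr9:119339969-119340268 (minus strand) for *Myd88*. Capitals mark matches to the NF-kB consensus in *Tlr2* and *Tlr3*, and to the ISRE in *Myd88*.
Tlr2: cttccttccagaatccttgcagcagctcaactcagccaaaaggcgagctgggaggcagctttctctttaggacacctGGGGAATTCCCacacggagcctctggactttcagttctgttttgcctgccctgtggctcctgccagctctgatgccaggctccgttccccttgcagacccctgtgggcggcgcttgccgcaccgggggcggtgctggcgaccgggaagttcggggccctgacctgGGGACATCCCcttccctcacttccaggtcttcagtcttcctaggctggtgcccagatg
Tlr3: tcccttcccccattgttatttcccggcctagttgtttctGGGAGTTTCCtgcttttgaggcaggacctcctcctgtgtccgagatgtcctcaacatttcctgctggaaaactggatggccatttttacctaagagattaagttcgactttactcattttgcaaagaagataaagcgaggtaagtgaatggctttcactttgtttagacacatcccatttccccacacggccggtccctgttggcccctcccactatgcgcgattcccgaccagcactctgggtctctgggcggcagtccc
Myd88: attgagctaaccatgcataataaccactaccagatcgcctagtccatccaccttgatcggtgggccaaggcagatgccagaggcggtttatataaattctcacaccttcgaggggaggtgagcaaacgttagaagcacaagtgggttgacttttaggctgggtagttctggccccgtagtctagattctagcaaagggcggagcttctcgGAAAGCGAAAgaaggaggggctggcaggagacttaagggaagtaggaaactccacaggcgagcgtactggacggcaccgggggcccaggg
Counted from the first base of its window, *Tlr2* matched the NF-kB consensus at bases 78 to 87 and 79 to 88, which overlap and of which the second read as a match on both strands, and again at bases 243 to 252. *Tlr3* had 1 match, at bases 40 to 49. Of all 32851 windows of the same length in the table, 4.51% held a match on either strand. The ISRE, searched as GAAANNGAAA, was matched in *Myd88* at bases 211 to 220 and in 3.44% of all windows. The AP-1 motif TGANTCA was in no window of the 8 genes and in 7.81% of all windows, and the GC box GGGCGG was in at least 1 window of each of the 8 genes and in 35.7% of all windows. None of the marked matches overlapped a match to another motif. A match describes the letters and was not tested as a binding site.

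*Tlr2* (ENSMUSG00000027995) recognises bacterial lipoproteins, paired with *Tlr1* or *Tlr6*. It had 8.34, 14.2 and 1.43 CPM in 24 m replicates 1, 2 and 3, against 1.03, 0 and 0.506 CPM in 3 m replicates 1, 2 and 3. These levels came from 247, 423 and 48 counts at 24 m, against 30, 0 and 16 counts at 3 m. The ages did not overlap, although 24 m replicate 3 was close to 3 m replicate 1 and far below the other 24 m libraries. Mean levels were 7.98 ± 6.38 CPM in 24 m libraries and 0.513 ± 0.516 CPM in 3 m libraries (SD, n = 3 each), a ratio of 15.6. By edgeR's quasi-likelihood test the log2 fold change was 3.95 (SE 1.35) with an unadjusted p of 0.0180 and an adjusted p of 0.783, which did not pass. With DESeq2 it was 3.97 (SE 1.14) with an adjusted p of 0.0342, which passed, and *Tlr2* was the only one of the 10 genes that did. An exact permutation test of the CPM gave a two-sided p of 0.1, the smallest that 3 libraries against 3 allow. The 95% interval of limma-voom for the log2 difference ran from −0.85 to 10.02.

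Over all genes, edgeR called 0% of 14899, a call being a log2 fold change beyond 1 in either direction at an adjusted p below 0.05. At an unadjusted p under 0.05, 531 genes were higher and 342 were lower at 24 m, and limma-voom also called 0 genes. DESeq2 called 1.59% of 17978 genes higher, and 1 of the 10 genes. Of all genes tested, 9.74% had every 24 m library above every 3 m library and 5.41% had every 24 m library below. With *Tlr2* alone among the 10 genes, the share without overlap was near that background, so the lack of overlap is not in itself a result about these genes.

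The call of *Tlr2* depended on the libraries. Without 3 m replicate 2, in which it had no count, the edgeR log2 fold change was 3.37 (SE 0.86) with an adjusted p of 0.145, and the DESeq2 adjusted p was 0.000898. The edgeR value was lowest without 24 m replicate 2, at 3.25 (SE 1.62), and highest without 3 m replicate 1, at 4.94 (SE 1.67). DESeq2 no longer called it without 24 m replicate 2 (adjusted p = 1.00), 24 m replicate 1 (adjusted p = 0.299) or 3 m replicate 3 (adjusted p = 0.0776). With no filter on low counts, edgeR called it with an adjusted p of 0.0361.

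Markers of white blood cells were also higher in the 24 m libraries. The summed level of 7 leukocyte markers was 25.0, 78.1 and 8.002 CPM in 24 m replicates 1, 2 and 3, against 0.275, 3.74 and 3.67 CPM in 3 m replicates 1, 2 and 3. *Itgb2*, the leukocyte integrin beta chain, had 188, 419 and 36 counts at 24 m, against 0, 0 and 0 at 3 m, while *Ptprc*, the gene of the sort's CD45 antigen, had 102, 286 and 80 counts at 24 m, against 0, 0 and 6 at 3 m. The 24 m libraries thus stood in the same order for the leukocyte markers as for *Tlr2*, replicate 2 highest and replicate 3 lowest. The sums of the macrophage, neutrophil, lymphocyte, endothelial, stromal, airway and AT1 markers, of the cytosolic sensors and of the negative regulators had this order at 24 m as well, so it was not particular to leukocyte genes. At 3 m the leukocyte sum ran in the reverse order to *Tlr2*, with *Tlr2* highest and the leukocyte sum lowest in replicate 1. In 3 m replicates 1 and 2 that sum came from *Coro1a* alone, with 8 and 105 counts. The macrophage and monocyte sum had the order of *Tlr2* at 3 m, with 50.6, 26.8 and 35.9 CPM in replicates 1, 2 and 3. In these libraries 10, 11 and 5 of its 14 markers had no count. Only 2 of the 14 had a mean of at least 10 CPM over the 6 libraries, and both overlapped between the ages. The neutrophil and lymphocyte sums had neither order at 3 m. The sum of 14 macrophage and monocyte markers was between 62.0 and 112 CPM at 24 m and between 26.8 and 50.6 CPM at 3 m, where *Adgre1*, *Marco*, *Fcgr1*, *Ms4a7* and *Cx3cr1* had no count. The sum of 7 neutrophil markers was between 3.48 and 30.7 CPM at 24 m and between 0 and 1.42 CPM at 3 m, with no count of *Ly6g* in any 24 m library. Of the markers that passed the filter, 4 of 6 leukocyte, 3 of 6 macrophage and monocyte and 3 of 4 neutrophil markers did not overlap. In each of these every 24 m library lay above every 3 m library, against 9.74% of all genes tested. Markers with no count at 3 m could pass the filter only through the 24 m libraries, which raises these shares. Lymphocyte markers summed to between 5.68 and 23.6 CPM at 24 m and between 0 and 1.71 CPM at 3 m, and endothelial markers to between 3.30 and 16.1 CPM at 24 m and between 3.86 and 5.37 CPM at 3 m. The part of these cells in the *Tlr2* difference was not tested. In bulk samples, fewer cells of a type and less RNA per cell cannot be told apart.

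**Figure D1:**
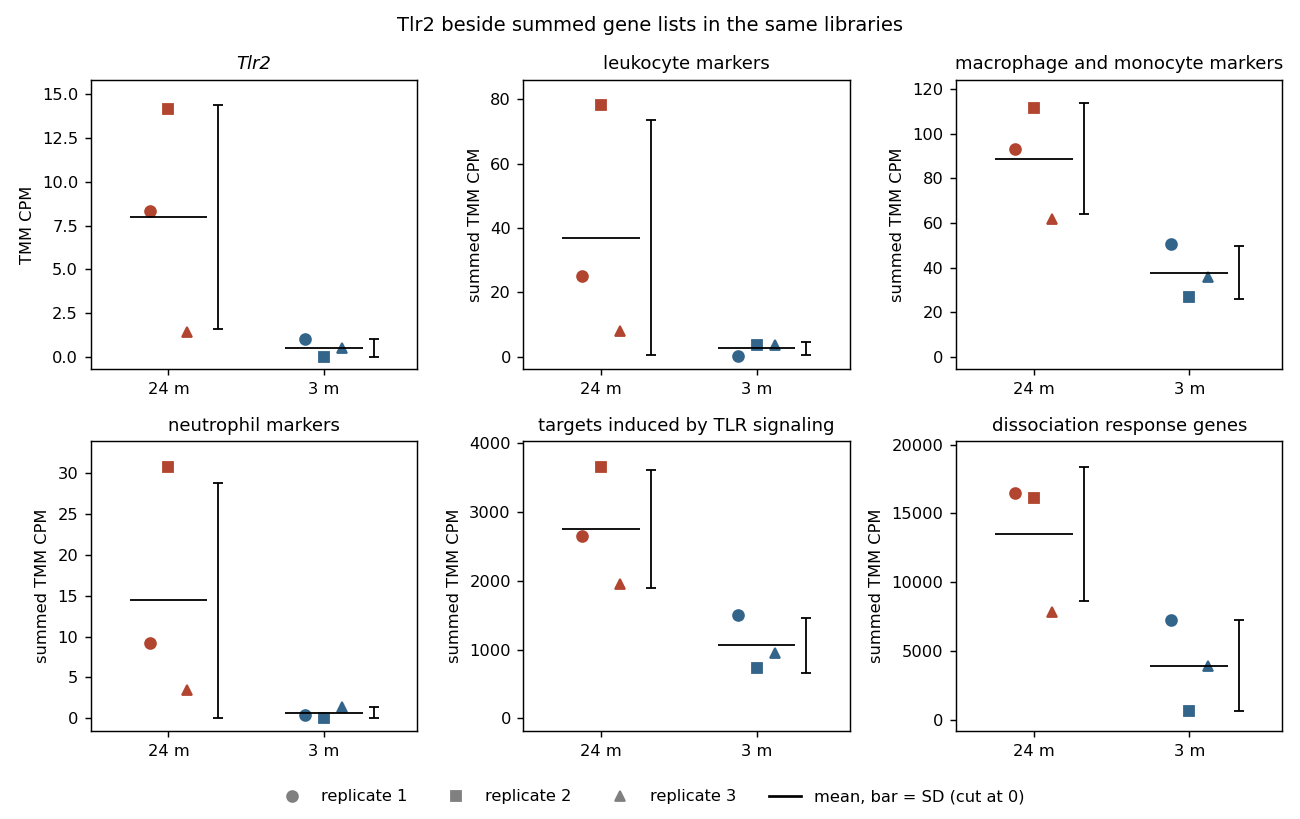
*Tlr2* (TMM CPM) and the summed TMM CPM of 5 gene lists in each library, 24 m left and 3 m right. Points are libraries, lines are means and bars are SD (n = 3 per age). In all 6 panels the 24 m libraries lie above the 3 m libraries, and 24 m replicate 3 is the lowest of the 24 m libraries.

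*Tlr4* (ENSMUSG00000039005), the receptor for bacterial lipopolysaccharide, had 23.5, 33.1 and 26.3 CPM in 24 m replicates 1, 2 and 3, against 29.2, 130 and 29.7 CPM in 3 m replicates 1, 2 and 3. The 24 m libraries lay close together around the level of 3 m replicates 1 and 3, while 3 m replicate 2 was 4.39 times the nearer of the other 3 m libraries. Of the genes tested, 3.05% had 3 m replicate 2 as far above. The edgeR log2 fold change was −1.19 (SE 0.57, adjusted p = 0.828). Without 3 m replicate 2 it was −0.088 (SE 0.21, adjusted p = 0.966), so the lower mean at 24 m came from that library. Counted against *Tlr4* in the same library, *Tlr2* gave 0.354, 0.428 and 0.0543 counts per *Tlr4* count at 24 m, against 0.0353, 0 and 0.0171 at 3 m, again without overlap.

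*Cd14* (ENSMUSG00000051439) encodes the surface protein that hands lipopolysaccharide to *Tlr4*, and it had the highest FPKM mean of the 10 genes at both ages. It had 109, 156 and 68.6 CPM in 24 m replicates 1, 2 and 3, against 82.1, 64.8 and 34.3 CPM in 3 m replicates 1, 2 and 3. The overlap came from 24 m replicate 3, which lay below 3 m replicate 1. Mean levels were 111 ± 43.6 CPM in 24 m libraries and 60.4 ± 24.2 CPM in 3 m libraries (SD, n = 3 each). The edgeR log2 fold change was 0.88 (SE 0.40, unadjusted p = 0.0577, adjusted p = 0.828), and it was 0.93 without 3 m replicate 2. The limma-voom 95% interval ran from −0.0024 to 1.79 on the log2 scale, so a difference of up to that size and none at all were both within it. The 24 m libraries stood in the same order for *Cd14* as for *Tlr2* and the leukocyte markers, an order that was not particular to leukocyte genes. At 3 m *Cd14* had neither the order of *Tlr2* nor that of the leukocyte sum.

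*Tlr5* (ENSMUSG00000079164), the flagellin receptor, was low, with 4.79, 4.53 and 3.66 CPM in 24 m replicates 1, 2 and 3, against 2.58, 6.77 and 10.2 CPM in 3 m replicates 1, 2 and 3. The 24 m libraries lay close together inside the wide range of the 3 m libraries. The log2 fold change was −0.59 (SE 0.58, adjusted p = 0.868, edgeR).

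*Tlr3* (ENSMUSG00000031639), the endosomal receptor for double-stranded RNA, had 11.1, 11.1 and 7.97 CPM in 24 m replicates 1, 2 and 3, against 11.8, 30.6 and 8.86 CPM in 3 m replicates 1, 2 and 3. As with *Tlr4*, only 3 m replicate 2 was high, at 2.60 times the nearer of the other 3 m libraries, and 7.78% of the genes tested had it as far above. The edgeR log2 fold change of −0.76 (SE 0.49, adjusted p = 0.830) was −0.035 (SE 0.30, adjusted p = 0.992) without that library. Exons of *Tlr3* overlap *Gm45542* on the other strand in the GENCODE annotation, and the strand setting of the counting is not given in the sources used here.

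*Nod1* (ENSMUSG00000038058) senses fragments of bacterial peptidoglycan. It had 59.8, 49.7 and 50.1 CPM in 24 m replicates 1, 2 and 3, against 39.1, 62.4 and 51.4 CPM in 3 m replicates 1, 2 and 3. All 24 m libraries fell inside the 3 m range. The log2 fold change was 0.062 (SE 0.26, adjusted p = 0.966, edgeR), with a limma-voom 95% interval from −0.51 to 0.67.

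**Figure D2:**
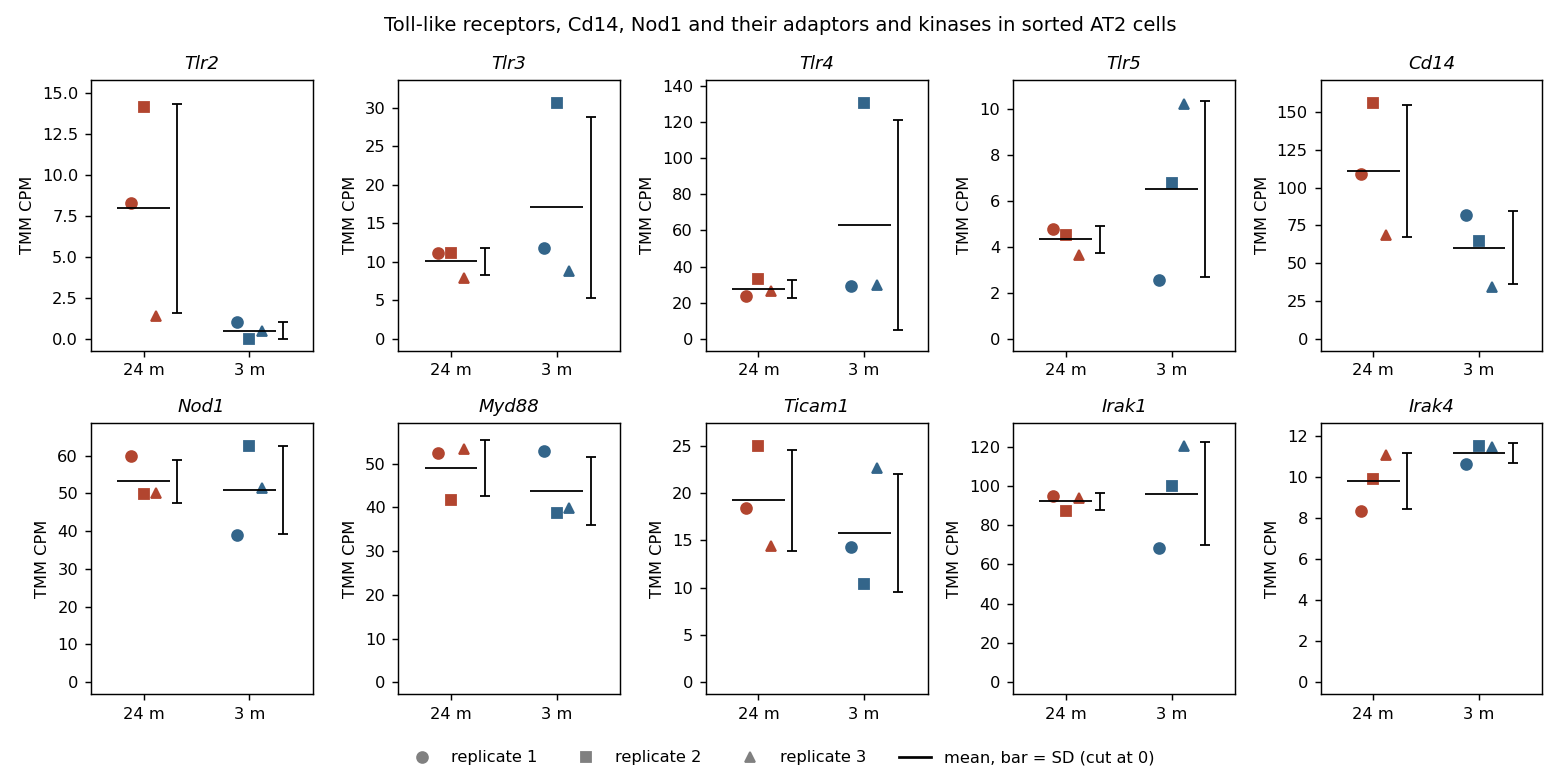
Level of each of the 10 genes (TMM CPM, linear axes with their own scales) in each library, 24 m left and 3 m right. Points are libraries, lines are means and bars are SD (n = 3 per age). The ages are apart for *Tlr2* alone, and 3 m replicate 2 is the high point of *Tlr3* (30.6 CPM) and *Tlr4* (130 CPM).

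*Myd88* (ENSMUSG00000032508) had 52.4, 41.7 and 53.3 CPM in 24 m replicates 1, 2 and 3, against 52.8, 38.8 and 39.9 CPM in 3 m replicates 1, 2 and 3. *Ticam1* (ENSMUSG00000047123) had 18.4, 24.9 and 14.4 CPM in 24 m replicates 1, 2 and 3, against 14.3, 10.4 and 22.6 CPM in 3 m replicates 1, 2 and 3. Both adaptors overlapped between the ages, *Myd88* within a narrow range and *Ticam1* with its highest value in 24 m replicate 2 and its next highest in 3 m replicate 3. The log2 fold change was 0.16 (SE 0.25, adjusted p = 0.915) for *Myd88* and 0.28 (SE 0.38, adjusted p = 0.904) for *Ticam1* by edgeR. The limma-voom 95% intervals were −0.40 to 0.74 for *Myd88* and −0.54 to 1.14 for *Ticam1*, so a 2-fold change of *Myd88* lay outside its interval and one of *Ticam1* did not. Exons of *Myd88* overlap *Acaa1a* on the other strand.

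*Irak1* (ENSMUSG00000031392) had 95.01, 87.4 and 94.1 CPM in 24 m replicates 1, 2 and 3, against 68.2, 99.8 and 120 CPM in 3 m replicates 1, 2 and 3. *Irak4* (ENSMUSG00000059883), which acts on *Irak1*, had 8.37, 9.92 and 11.1 CPM in 24 m replicates 1, 2 and 3, against 10.6, 11.5 and 11.5 CPM in 3 m replicates 1, 2 and 3. For *Irak1* the 24 m libraries lay inside the 3 m range, and for *Irak4* the ages overlapped only through 24 m replicate 3. The log2 fold changes were −0.060 (SE 0.26, adjusted p = 0.967) for *Irak1* and −0.19 (SE 0.33, adjusted p = 0.925) for *Irak4* by edgeR, with limma-voom 95% intervals of −0.62 to 0.58 and −0.91 to 0.51. Exons of *Irak4* overlap *Twf1* on the other strand, and those of *Irak1* hold *Mir5132* and *Mir718* on the same strand.

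**Figure D3:**
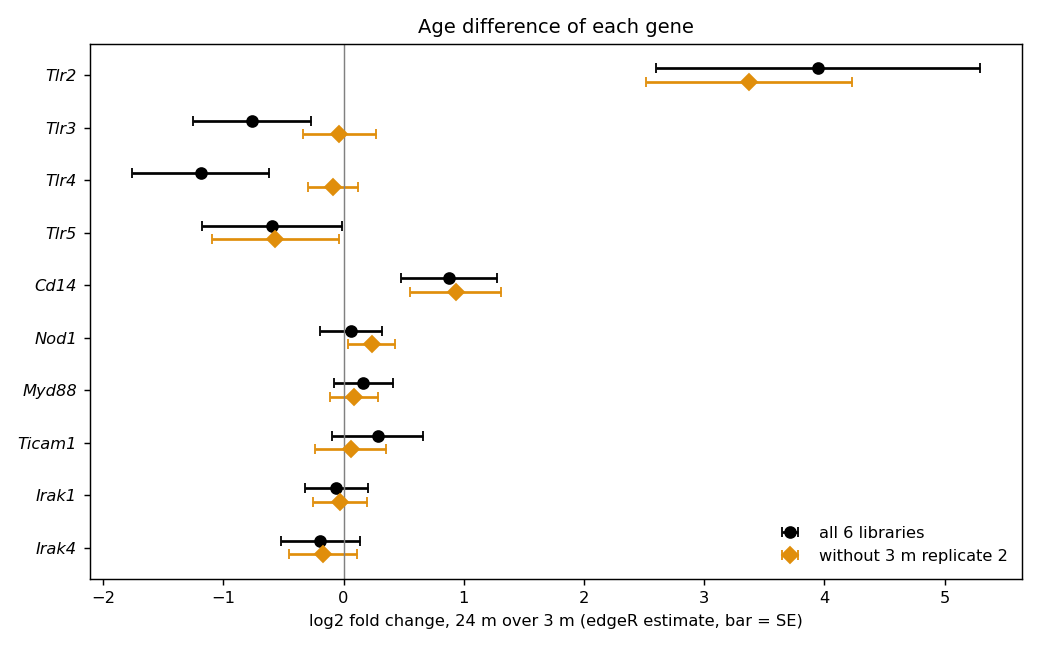
Log2 fold change of each gene, 24 m over 3 m, from edgeR on all 6 libraries (circles) and without 3 m replicate 2 (diamonds). Bars are the SE derived from the F statistic of the test. *Tlr2* stays at 3.37 without that library, while *Tlr4* (−1.19 with it) and *Tlr3* (−0.76 with it) move to −0.088 and −0.035.

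Per length of transcript, in the FPKM deposited by the authors, the order of the 10 levels was led by *Cd14* at both ages, with a mean of 65.8 ± 25.3 FPKM at 24 m and 33.4 ± 11.99 FPKM at 3 m (SD, n = 3 each). At 24 m there followed *Irak1* (mean 20.1 FPKM), *Myd88* (19.6), *Nod1* (10.8), *Ticam1* (6.60), *Tlr4* (5.11), *Tlr2* (2.71), *Irak4* (2.01), *Tlr3* (1.98) and *Tlr5* (0.856). At 3 m there followed *Irak1* (mean 20.0 FPKM), *Myd88* (16.5), *Tlr4* (10.7), *Nod1* (9.74), *Ticam1* (5.22), *Tlr3* (3.12), *Irak4* (2.17), *Tlr5* (1.25) and *Tlr2* (0.166). *Tlr2* was therefore last at 3 m, where all of its libraries lay below those of *Tlr5*. At 24 m its range overlapped those of both of its neighbours, *Tlr4* and *Irak4*. *Cd14* was apart from *Irak1* at 24 m but overlapped it at 3 m, and *Irak1* and *Myd88* overlapped each other at both ages. Messages for the adaptors *Myd88* and *Ticam1* and the kinase *Irak1* were thus more abundant per length, by their means, than those of *Tlr2*, *Tlr3* and *Tlr5* at both ages.

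The remaining Toll-like receptors were close to absent. *Tlr1*, *Tlr6*, *Tlr7*, *Tlr8*, *Tlr9*, *Tlr11* and *Tlr13* were in the table, none passed the filter, and the highest count of any of them was 36 in a 24 m library and 3 in a 3 m library. The partners of *Tlr2* were among them, with counts of *Tlr1* of 0, 0 and 1 at 24 m, against 0, 0 and 0 at 3 m, and of *Tlr6* of 3, 0 and 0 at 24 m, against 0, 0 and 3 at 3 m. *Tlr8* had 21, 36 and 0 counts in 24 m replicates 1, 2 and 3, against none at 3 m, and *Tlr9*, the receptor for unmethylated CpG DNA, had 15, 33 and 1 counts at 24 m, against none at 3 m. The adjusted p of DESeq2 was 0.373 for *Tlr8* and 0.289 for *Tlr9*. Both were highest in 24 m replicate 2, the library highest for *Tlr2* and the leukocyte markers, but also for the AT1, airway and stromal sums.

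Of 8 co-receptors and chaperones of the Toll-like receptors, 6 were tested and none was called by edgeR or DESeq2. Their median log2 fold change was 0.34, against 0.052 over all genes tested. *Unc93b1*, which carries the nucleic acid sensing receptors to the endosome, had 30.9, 40.6 and 29.2 CPM in 24 m replicates 1, 2 and 3, against 21.4, 11.4 and 24.9 CPM in 3 m replicates 1, 2 and 3. It did not overlap between the ages, but its log2 fold change of 0.80 (SE 0.34) had an adjusted p of 0.478 with DESeq2. *Ly96*, the MD-2 that *Tlr4* needs to bind lipopolysaccharide, was scarce, with 73, 35 and 32 counts at 24 m, against 26, 0 and 13 counts at 3 m. *Lbp*, the lipopolysaccharide binding protein, had a log2 fold change of 0.56 (SE 0.30) with overlapping ages, and *Cd36*, a scavenger receptor that assists *Tlr2*, had −0.99 (SE 0.46). The high value of *Cd36* was that of 3 m replicate 2, at 5554 CPM, as for *Tlr4* and *Tlr3*. It had 1921 and 1764 CPM in 3 m replicates 1 and 3. *Hsp90b1*, the chaperone of the Toll-like receptors, was lower in every 24 m library, at 418, 422 and 408 CPM, than in any 3 m library, at 573, 523 and 495 CPM (log2 fold change −0.35, SE 0.21, DESeq2 adjusted p = 0.597).

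Of 23 other adaptors and proximal kinases, 21 were tested, 11 with a fitted value above 0 and 10 below, and the median log2 fold change was 0.026. *Myd88*, *Ticam1*, *Irak1* and *Irak4* are not counted in this list. DESeq2 called 1 of the 23 higher, against 1.59% over all genes. This was *Ikbke*, the inducible kinase that activates interferon regulatory factors, with 1.76, 5.87 and 0.595 CPM in 24 m replicates 1, 2 and 3, against 0.172, 0 and 0.253 CPM in 3 m replicates 1, 2 and 3 (adjusted p = 0.0495). The call of *Ikbke* was lost without 3 m replicate 1, without any one of the 24 m libraries and with the replicate block. *Irf7*, a transcription factor of the interferon response, had 15.8, 17.9 and 6.16 CPM at 24 m, against 3.65, 0.463 and 4.24 CPM at 3 m, with a DESeq2 adjusted p of 0.12, and *Irf5* had a DESeq2 adjusted p of 0.216. All 3 of these genes were above every 3 m library in every 24 m library. They were the only such genes of the 21 tested, against 9.74% of all genes tested. *Ikbke* and *Irf5* had at most 9 counts in any 3 m library. *Pik3ap1*, the adaptor BCAP, had a log2 fold change of −0.74 (SE 0.31) with overlapping ages.

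Of 15 other cytosolic sensor genes in the table, 11 were tested, with a median log2 fold change of 0.68. DESeq2 called 1 higher, against 1.59% over all genes. This was *Nlrp3*, the inflammasome sensor, which had 137, 138 and 15 counts in 24 m replicates 1, 2 and 3, against 0, 0 and 0 counts at 3 m (adjusted p = 3.38e-05). *Sting1*, the adaptor of cytosolic DNA sensing, had 20.5, 27.7 and 18.3 CPM at 24 m, against 13.2, 5.88 and 9.62 CPM at 3 m, with a log2 fold change of 1.21 (SE 0.38) and a DESeq2 adjusted p of 0.147. Neither *Sting1* nor *Nlrp3* overlapped between the ages, and both were higher at 24 m. They were the only such genes of the 11 tested, against 9.74% of all genes tested. *Nlrp3*, having no count at 3 m, could pass the filter only through the 24 m libraries. Its presence in the list raises this share and the median. *Zbp1* and *Cgas*, sensors of nucleic acids, were below 5 CPM in every library and overlapped. *Ddx58* and *Ifih1*, the RNA helicases that sense viral RNA, had log2 fold changes of −0.064 (SE 0.28) and −0.29 (SE 0.33), chosen here after their values were seen as the counterparts of *Tlr3*.

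Of 14 negative regulators of Toll-like receptor signaling, DESeq2 called 4 higher at 24 m and none lower, against 1.59% called higher over all genes. *Zc3h12a*, an RNase that degrades cytokine messages, had 44.0, 47.3 and 17.4 CPM in 24 m replicates 1, 2 and 3, against 5.4, 2.53 and 5.73 CPM in 3 m replicates 1, 2 and 3 (log2 fold change 2.99, SE 0.50, DESeq2 adjusted p = 3.24e-06). *Tnfaip3*, the ubiquitin-editing enzyme A20, had 70.4, 84.4 and 27.5 CPM at 24 m, against 15.7, 15.1 and 16.7 CPM at 3 m (log2 fold change 1.94, SE 0.41, DESeq2 adjusted p = 0.00244). *Nfkbia*, the inhibitor of NF-kB that NF-kB itself induces, had 298, 312 and 113 CPM at 24 m, against 88.1, 12.3 and 47.4 CPM at 3 m (log2 fold change 2.29, SE 0.67, DESeq2 adjusted p = 0.0193). None of these 3 overlapped between the ages, and in each of them 24 m replicate 3 was the lowest 24 m library, as it was for *Tlr2*. The fourth was *Il1rn*, the interleukin 1 receptor antagonist, with 67, 99 and 3 counts at 24 m, against none at 3 m (DESeq2 adjusted p = 0.00416). The number called was 1, *Zc3h12a*, when DESeq2 was run without 24 m replicate 1 or without 24 m replicate 2. It was 3, with *Nfkbia* no longer called, when 3 m replicate 2 or 3 m replicate 3 was left out. *Nfkbie* had a log2 fold change of 1.03 (SE 0.58) with overlapping ages. The median over the 12 genes tested was −0.021, so the rest of the list was spread around 0.

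Among 6 genes of interleukin 1 family receptors, most of which also signal through *Myd88*, the median log2 fold change was 0.0096. DESeq2 called 1 of the 6 higher, against 1.59% over all genes. This was *Il1r2*, a decoy receptor that does not signal, with 63, 49 and 11 counts at 24 m, against none at 3 m (adjusted p = 0.00542). It could therefore pass the filter only through the 24 m libraries. DESeq2 no longer called *Il1r2* without 24 m replicate 1 or 24 m replicate 2. *Il18r1*, the interleukin 18 receptor, was lower in every 24 m library, at 102, 109 and 138 CPM, than in any 3 m library, at 167, 243 and 159 CPM (log2 fold change −0.70, SE 0.26, DESeq2 adjusted p = 0.337). *Il1r1* and *Il1rap*, the 2 chains of the interleukin 1 receptor, had log2 fold changes of −0.48 (SE 0.29) and −0.93 (SE 0.57). Both chains overlapped between the ages and were highest in 3 m replicate 2.

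Most genes that Toll-like receptor signaling is known to induce were higher in the 24 m libraries. Of 23 in the table, 14 were tested, and 22 had an adjusted p with DESeq2. DESeq2 called 10 higher at 24 m and none lower, against 1.59% called higher over all genes. By edgeR no gene of this or any other list was called. The median log2 fold change of the 14 was 2.14, against 0.052 over all genes tested, and 11 of the 14 had every 24 m library above every 3 m library, against 9.74% of all genes tested. Genes with no count at 3 m could pass the filter only through the 24 m libraries, which raises such shares.

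*Nfkbiz*, a cofactor of NF-kB that shapes the later response, had 245, 226 and 118 CPM in 24 m replicates 1, 2 and 3, against 74.7, 35.8 and 48.7 CPM in 3 m replicates 1, 2 and 3 (log2 fold change 1.89, SE 0.38, DESeq2 adjusted p = 0.000669). *Irf1*, an interferon regulatory factor, had 85.5, 98.7 and 52.8 CPM at 24 m, against 32.3, 17.5 and 29.1 CPM at 3 m (log2 fold change 1.59, SE 0.34, DESeq2 adjusted p = 0.00492). *Cxcl1*, a neutrophil chemokine that epithelial cells make, had 16.8, 36.6 and 8.95 CPM at 24 m, against 6.5, 1.6 and 2.88 CPM at 3 m (log2 fold change 2.51, SE 0.67, DESeq2 adjusted p = 0.0152). These were the called targets with appreciable levels at both ages, and in each of them the ages did not overlap. Their log2 fold changes and SE are those of edgeR, whose adjusted p was 0.309 for *Nfkbiz*, 0.317 for *Irf1* and 0.542 for *Cxcl1*. *Il1b*, *Tnf*, *Acod1* and *Ccl5* had no count at 3 m, and *Saa3*, *Cxcl10* and *Ccl20* had at most 10 counts in any 3 m library. *Il1b*, the macrophage cytokine interleukin 1 beta, had 211, 338 and 17 counts at 24 m, and *Tnf* had 136, 218 and 8. Both were highest in 24 m replicate 2 and lowest in 24 m replicate 3, in the order of *Tlr2* and of the leukocyte markers. This order was not particular to leukocyte genes.

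*Nos2*, the inducible nitric oxide synthase, ran the other way, with 9, 0 and 3 counts at 24 m, against 36, 82 and 32 counts at 3 m (DESeq2 adjusted p = 0.154). It was the one target lower in every 24 m library. The number of targets called by DESeq2 was 13 without 3 m replicate 2, but 5 without 24 m replicate 1 and 2, *Tnf* and *Il1b*, without 24 m replicate 2. Beside the leukocyte markers given above, the summed level of 12 genes that respond to tissue dissociation, such as *Fos* and *Hspa1b*, was 16491, 16142 and 7849 CPM in 24 m replicates 1, 2 and 3, against 7249, 600 and 3905 CPM in 3 m replicates 1, 2 and 3. These sums did not overlap between the ages. The summed level of 8 airway markers was between 636 and 1287 CPM at 24 m and between 281 and 745 CPM at 3 m, with overlap. Taken gene by gene, all 8 airway markers had a fitted value above 0 (median log2 fold change 2.04), against 53.8% of all genes tested. Of the 8, 5 lay higher in each 24 m library than in any 3 m library, against 9.74% of all genes tested. DESeq2 called 4 of the 8 higher, against 1.59% over all genes, and edgeR called none. The part of the leukocyte, dissociation and airway genes in the differences of the targets, the negative regulators and *Tlr2* was not tested.

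**Figure D4:**
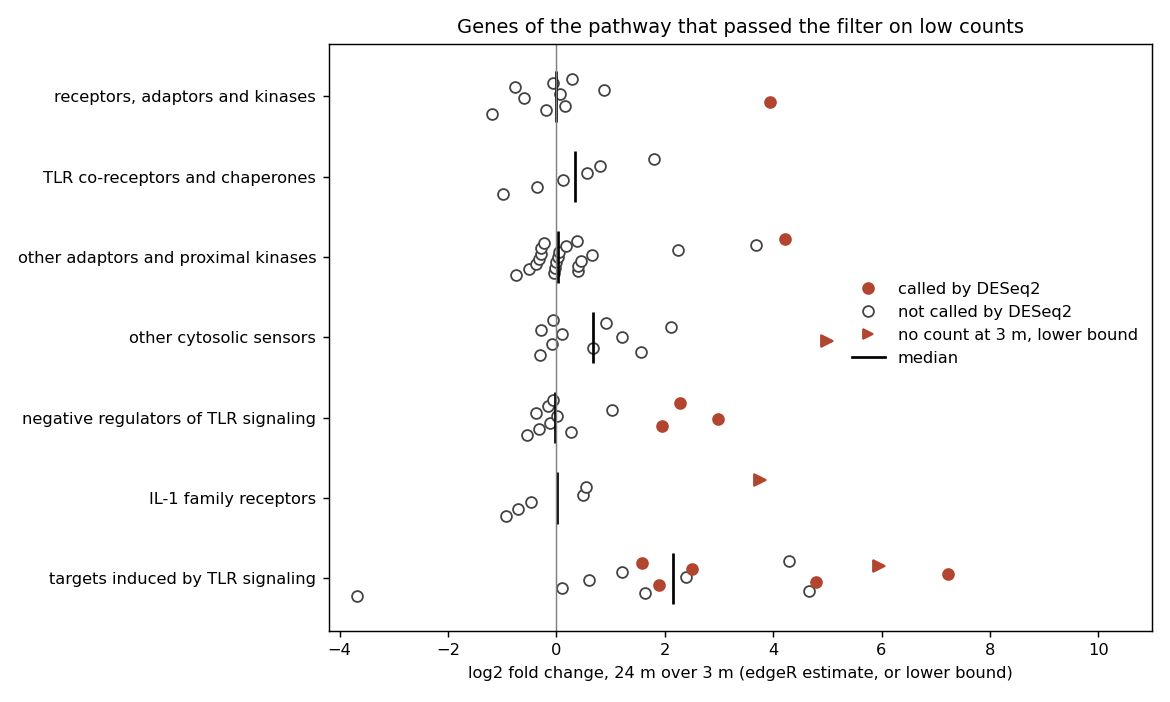
Log2 fold change, 24 m over 3 m (edgeR), of the genes of each list that passed the filter on low counts. Filled symbols were called by DESeq2, and triangles are lower bounds for genes with no count at 3 m, from 3 counts in each 3 m library. The vertical lines are medians. Among the 6 lists below the top row, which holds the 10 genes, they run from −0.021 for the negative regulators to 2.14 for the targets, and were the same with fitted values in place of the bounds.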

How the data were processed

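Reads were paired-end. HISAT2, featureCounts and DESeq2 stand in the processing notes of the submitters, as does the build GRCm39, without versions, strand setting or annotation release. The table deposited by the authors holds raw counts per gene, which are whole numbers with no normalization, and FPKM, which the authors computed per gene length and library total. Columns were assigned to libraries by sample title. Genes with low counts were left out with edgeR's filterByExpr (9325 of 24224). The main test was edgeR 4.0.16 (quasi-likelihood, TMM, 24 m over 3 m, all 6 libraries, no covariate, Benjamini-Hochberg over all genes tested), in R 4.3.3. The edgeR test gives no SE, so its SE was derived as the size of the log2 fold change over the square root of the F statistic. Called genes had a log2 fold change beyond 1 in either direction at an adjusted p below 0.05. DESeq2 1.42.0 and limma-voom 3.58.1 were alternatives, as were other scalings and filters, a replicate block and leaving out each library. The DESeq2 fits with a library left out or with the block, and all alternatives for the target list, were chosen after seeing the data. The scripts were tested on simulated data.

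The 10 genes and all lists were chosen with earlier results of these data known, so their counts are descriptions. All 10 genes are named. Of each pathway list the text names the genes with the smallest unadjusted edgeR p, up to 4, and those called by edgeR or DESeq2, and other named genes were chosen after their values were seen. Promoters came from RefSeq tables of GRCm38.p6, by symbol, and windows on the chromosome of *Cd14* were left out of those of the 10 genes. Exon overlaps were read from GENCODE vM21. No coordinates were converted.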

Additional observations from a re-analysis of the deposited data

How the results depend on the processing

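Of 200 values (10 genes under 20 alternatives each), 188 kept their direction and their side of the threshold. The other 12 were 6 in which *Tlr2* passed the threshold and 6 changes of sign near 0. Leaving out 1 library moved the edgeR log2 fold change of *Tlr2* between 3.25 (without 24 m replicate 2) and 4.94 (without 3 m replicate 1), each over 1.5 times from the fold change, unlogged, with all libraries. It moved that of *Nod1* between −0.093 and 0.235 with edgeR and between −0.12 and 0.23 with DESeq2, and that of *Irak1* between −0.25 and 0.14 with edgeR and between −0.28 and 0.11 with DESeq2. *Nod1* changed sign without 3 m replicate 1 (−0.093 with edgeR, −0.12 with DESeq2) and without 24 m replicate 1 (−0.027 and −0.040), and *Irak1* without 3 m replicate 3 (0.14 with edgeR, 0.11 with DESeq2). The number of the 10 genes called was 0 with edgeR, and 1, *Tlr2*, with DESeq2, with no filter on low counts, with DESeq2 and the replicate block, and at an unadjusted p with no limit on the fold. Leaving out 1 library gave 0 to 1 calls, and 1 to 6 genes whose ages did not overlap, as fewer libraries overlap less easily; the 6 came without 3 m replicate 1. The number of targets called higher was 10 with DESeq2 and 0 with edgeR or limma-voom, and it was 2 to 13 with 1 library left out of DESeq2. The cause of the differences between tools was not tested.

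Same-numbered libraries did not deviate together (r between −0.0766 and 0.0103 over genes, after centring within each age). With 3 libraries per age this cannot settle whether they shared a collection or a sort, and the study describes no pairing. With the replicate block the *Tlr2* log2 fold change was 3.79 by edgeR (adjusted p = 0.925), and 0 of the 10 genes were called.

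Depth bore most on *Tlr2* at 3 m, whose level came from 46 counts in all. Each of the other 9 genes had at least 75 counts in every library.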

Other observations

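The receptors differed in how they were balanced within a library. There were 0.216, 0.213 and 0.383 *Tlr4* counts per *Cd14* count in 24 m replicates 1, 2 and 3, against 0.356, 2.01 and 0.864 in 3 m replicates 1, 2 and 3. The highest 24 m ratio, that of replicate 3, lay just above the lowest 3 m ratio, that of replicate 1, so the ages overlapped. The 2 adaptors gave 0.352, 0.598 and 0.270 *Ticam1* counts per *Myd88* count at 24 m, against 0.271, 0.269 and 0.567 at 3 m, and the kinases gave 0.0881, 0.114 and 0.118 *Irak4* counts per *Irak1* count at 24 m, against 0.156, 0.115 and 0.0953 at 3 m. Neither ratio separated the ages.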
